A study of Mus musculus with 50 samples.

Results

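The genes described here are the nuclear-encoded genes of oxidative phosphorylation, 83 of the 24552 genes counted in each library. They were chosen by gene symbol alone, with no use of their values: subunits of complex I (Nduf, 37 genes), complex II (Sdh, 4 genes), complex III (Uqcr, 8 genes), complex IV (Cox4 to Cox8, 18 genes) and complex V, the ATP synthase (Atp5, 16 genes), without pseudogene entries. RNA was sequenced from nucleus accumbens (NAc) punches of C57BL/6 mice aged 8 to 12 weeks that carried the RiboTag allele (RT, an HA-tagged Rpl22 that is expressed only in Cre-expressing cells) together with D1-Cre or D2-Cre, BAC transgenes that follow the dopamine D1 or D2 receptor gene. HA immunoprecipitates (D1-IPs and D2-IPs) hold RNA bound to tagged ribosomes, and inputs hold RNA of the whole punch, including cells of every type. Mice were undefeated controls (Con) or went through chronic social defeat stress, daily encounters with an aggressive CD1 mouse for up to 10 days, and were then sorted by social interaction into resilient (Res) or susceptible (Sus) groups. Each library was made from 2 pooled mice. There were 4 Con, 4 Res and 5 Sus D1-IPs, 5 D2-IPs of each stress group and 3 inputs for each line and stress group. In addition, 4 D1-IPs came from undefeated mice labelled Sirt1-KO, whose genotype adds floxed Sirt1 to RT and D1-Cre, so that deletion is limited to D1-Cre cells; they were compared with the 4 D1 Con IPs, and their labels give no age.

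Oxidative phosphorylation takes place in the inner mitochondrial membrane. Complexes I and II pass electrons from NADH and succinate to coenzyme Q, complex III passes them on to cytochrome c, and complex IV reduces oxygen. Complexes I, III and IV pump protons, and the ATP synthase uses the proton gradient to make ATP, the main source of energy for ion pumping and synaptic transmission in neurons. All subunits of complex II and most subunits of the others are nuclear-encoded, translated on cytosolic ribosomes and imported, and several complex IV subunits have isoforms of their own in heart, muscle, lung or testis. The subunits encoded by mitochondrial DNA were not analysed here.

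Depth on genes was 18384265 to 31009626 counts in the 46 IPs and inputs and 22174187 to 31785984 in the Sirt1-KO libraries. Reads that fell outside annotated genes made up 10.4% to 17.6% of the total in IPs and 23.4% to 27.2% in inputs. They exceeded 15% in 5 IPs, all of them D2-IPs (Con 2, Con 5, Res 5, Sus 2 and Sus 5), and counts that change without these libraries are given with each result. Between the lines, the 6 markers of D1 medium spiny neurons (MSNs), the main neurons of the NAc, were higher in D1-IPs than in D2-IPs. The 6 D2-MSN markers were lower. Against inputs, all 6 D2-MSN markers were higher in D1-IPs as well (median log2 fold change 0.66), beside 5 of 6 D1-MSN markers (0.90). In D2-IPs all 6 D2-MSN markers were higher (2.14), and of the D1-MSN markers 2 were higher and 4 lower (-0.31). IPs of each line thus held some markers of the other subtype above input. Astrocyte, microglia and endothelial markers were lower in IPs than in inputs. Their medians were -3.06, -4.65 and -3.88 on the log2 scale in the D1 line and -3.54, -4.32 and -3.57 in the D2 line. Cholinergic interneuron markers, which D2-Cre also labels, summed to 51.6 to 110.6 CPM, counts per 1000000 counts on genes after scaling by trimmed mean of M-values (TMM), in D2-IPs and 4.71 to 21.7 CPM in D1-IPs. In bulk RNA, a change in the share of a cell type and a change in RNA per cell cannot be told apart.

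Of the 83 genes, 66 had a promoter in RefSeq (build GRCm38.p6), with 71 promoters in all. Transcription factors known for activating this gene set are NRF1, GABP of the ETS family, YY1 and ERR, and their core motifs were searched on both strands from 250 bases before the start to 50 after it. The NRF1 motif GCGCATGCG was in 11.3% of these promoters and in 2.35% of the promoters of all protein-coding genes. The YY1 motif AAGATGGCG was in 9.86% and 1.83%, the ERR motif TCAAGGTCA in 2.82% and 0.334%, and the ETS motif CCGGAAGT in 7.04% and 5.15%. These shares of the 71 promoters rest on 8 (NRF1), 7 (YY1), 2 (ERR) and 5 (ETS) of them. In the 250 bases before the start alone, the numbers were 6, 1, 1 and 3, or 8.45%, 1.41%, 1.41% and 4.23%, against 1.93%, 0.72%, 0.32% and 3.79% of all protein-coding promoters. No motif contains another on either strand. These shares are descriptions, and a window without a match shows only that these letters are not in it. The 250 bases before the start are shown for 3 genes in which no annotated exon overlaps them: Atp5g3 (chr2:73911327-73911576, minus strand) and Cox5a (chr9:57520982-57521231, plus strand), both higher in IPs than in inputs, and Cox8a (chr19:7217617-7217866, minus strand), which was lower. Capitals mark the ERR motif on the opposite strand; the other 2 windows hold none of the 4 motifs.
Atp5g3: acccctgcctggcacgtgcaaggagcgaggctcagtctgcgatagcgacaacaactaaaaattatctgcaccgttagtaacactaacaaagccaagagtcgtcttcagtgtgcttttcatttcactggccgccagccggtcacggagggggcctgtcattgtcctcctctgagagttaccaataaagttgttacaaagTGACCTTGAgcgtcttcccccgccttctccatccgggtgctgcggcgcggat
Cox5a: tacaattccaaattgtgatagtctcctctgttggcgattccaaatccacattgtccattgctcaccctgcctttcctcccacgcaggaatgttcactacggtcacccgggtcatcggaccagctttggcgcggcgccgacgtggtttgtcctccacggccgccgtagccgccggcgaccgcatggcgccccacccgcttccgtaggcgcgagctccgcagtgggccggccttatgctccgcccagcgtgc
Cox8a: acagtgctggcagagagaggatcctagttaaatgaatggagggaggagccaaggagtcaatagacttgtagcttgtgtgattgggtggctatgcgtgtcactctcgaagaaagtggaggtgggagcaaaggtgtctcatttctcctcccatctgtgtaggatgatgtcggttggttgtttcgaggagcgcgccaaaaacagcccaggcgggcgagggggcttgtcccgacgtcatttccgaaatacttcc

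Summed over the 83 genes, the level was higher in every IP than in every input. D1-IPs held 10279 ± 445 CPM (SD, n = 13; 9580 to 11059), D2-IPs 9864 ± 703 (n = 15; 8478 to 11635), D1-inputs 6636 ± 210 (n = 9; 6449 to 7137) and D2-inputs 6775 ± 175 (n = 9; 6581 to 7051). Unless stated otherwise, levels below are means ± SD over these same libraries. The 84 cytosolic ribosomal protein genes, which also give short and abundant mRNAs, had the opposite order, with 6604 ± 310 and 6664 ± 495 CPM in D1- and D2-IPs and 8311 ± 445 and 8349 ± 344 in the inputs. Complex V made up the largest part of the sum, with 4485 ± 197 and 4260.4 ± 292 CPM in D1- and D2-IPs against 2455 ± 84.3 and 2508 ± 60.2 in the inputs. Complex IV differed least, with 1251 ± 83.9 and 1200.0 ± 125 CPM in the IPs and 1162 ± 45.4 and 1195 ± 54.6 in the inputs.

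**Figure D1:**
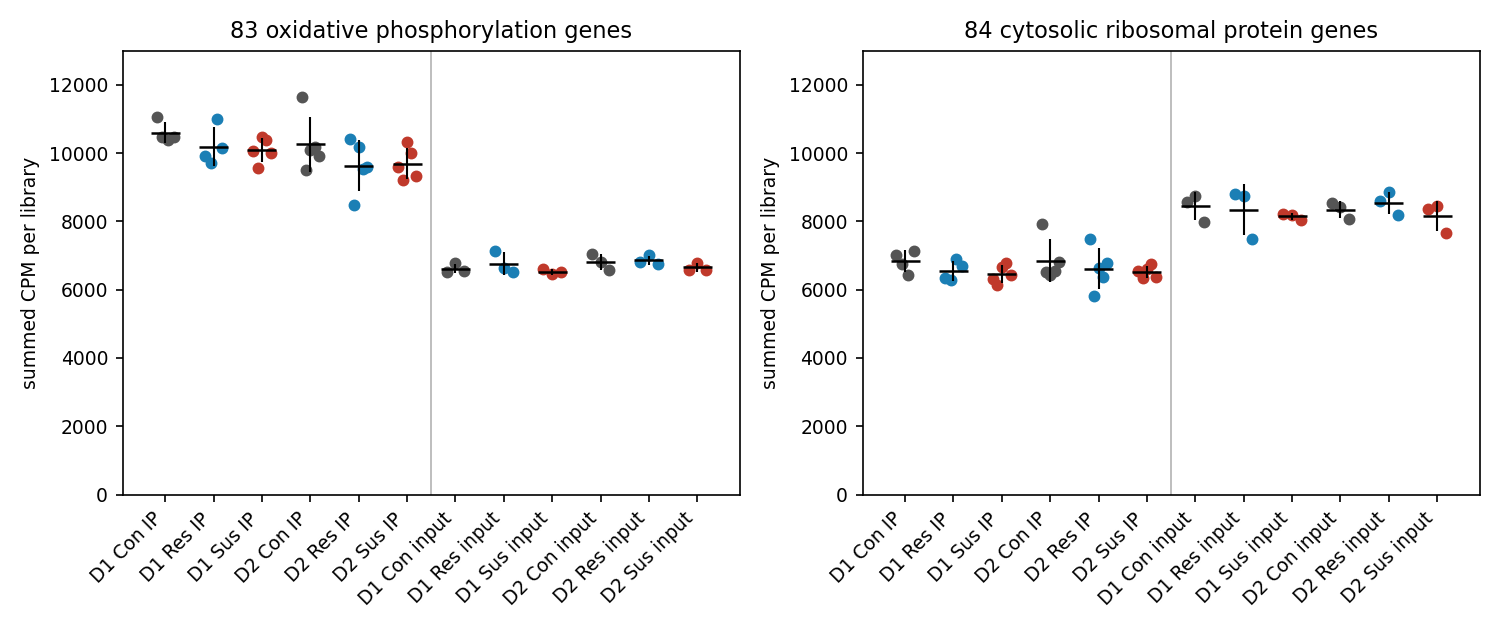
Summed CPM per library (vertical axis, from 0) of the 83 oxidative phosphorylation genes (left) and of 84 cytosolic ribosomal protein genes (right) in the 12 groups of line, stress and RNA kind. Points are libraries, and bars show the mean and SD; the oxidative phosphorylation sum lies between 8478 and 11635 CPM in all IPs and between 6449 and 7137 CPM in all inputs.

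Per length, Atp5b, which encodes the catalytic beta subunit of the ATP synthase, was the most abundant member in every set, with 781 ± 35.4 and 732 ± 44.0 CPM per kb in D1- and D2-IPs and 394 ± 15.6 and 404 ± 10.5 in D1- and D2-inputs. Atp5a1, the alpha subunit, came second in IPs, with 554 ± 26.3 and 527 ± 34.1 CPM per kb, and lower down in inputs, with 247 ± 9.06 and 250.2 ± 4.92. Cox4i1, a structural subunit of complex IV, followed in IPs, with 368 and 345 CPM per kb. In inputs Cox4i1 (289 and 299.8 CPM per kb) and Cox8a (290.3 and 294 CPM per kb), a small complex IV subunit, lay within their spread of each other. Ndufs5, a complex I subunit, and Cox8c were listed at 0 in all libraries, which says only how these genes are listed and is not read as a level. Cox7b2 and Cox8b had at most 13 and 5 counts in any library. These 4 genes were not tested.

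Immunoprecipitates were then compared with inputs, which asks how far each mRNA is enriched on tagged ribosomes over whole NAc tissue. Genes were called at a Benjamini-Hochberg adjusted p of 0.05 by edgeR. Of 79 tested members, 54 were higher and 10 lower in D1-IPs than in D1-inputs (81.0% called, where 81.8% of all genes tested were called). Among all genes 39.2% were higher and 42.6% lower, so the share called was near the background and the split between directions was not. In the D2 line 51 members were higher and 11 lower (78.5% called, where the background was 82.7%, with 37.8% of all genes higher and 44.8% lower). The median log2 fold change of the members was 0.35 in the D1 line and 0.27 in the D2 line, and that of all genes tested -0.04 and -0.08. In both lines the same 51 genes were higher and the same 9 lower, and none was called in opposite directions. Among the lower genes, Cox4i2, Cox6b2, Ndufa4l2 and, in the D2 line, Cox7a1 had too few counts to be tested among IPs alone. They entered this test through the inputs, so a lower call was favoured in advance and is not read as support. Without the 5 D2-IPs named above the D2 counts were 52 higher and 11 lower. The levels of every IP exceeded those of every input for 37 members in the D1 line and 28 in the D2 line. These were 46.8% and 35.4% of the 79, against 23.9% and 21.9% of all genes. The levels of every IP were below every input for 3 and 5 members (3.80% and 6.33%, against 24.4% and 22.3% of all genes).

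**Figure D2:**
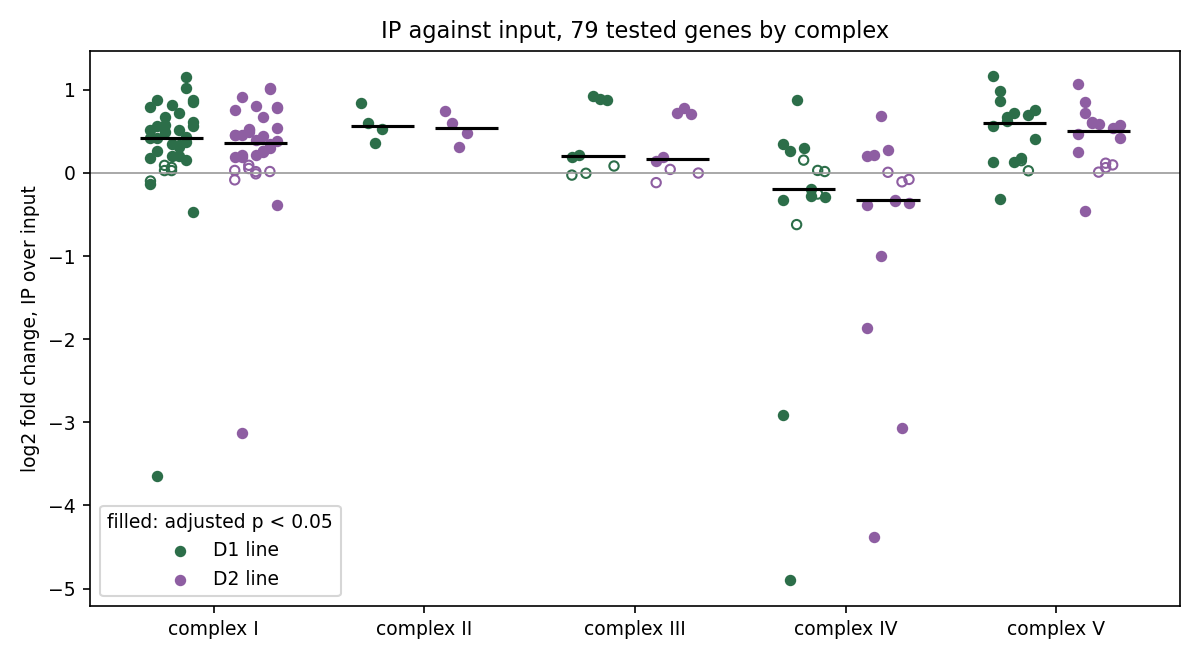
Log2 fold change of IPs over inputs (vertical axis) for the 79 tested genes, grouped by complex, in the D1 line (green) and D2 line (purple). Filled points passed an adjusted p of 0.05 and black bars are medians; complex V has medians of 0.60 and 0.50 and complex IV of -0.19 and -0.32.

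In complex I, 28 of 36 tested genes were higher in D1-IPs than in inputs and 3 lower, and 27 were higher and 2 lower in the D2 line. The 7 nuclear-encoded subunits of the catalytic core, which bind the flavin and the iron-sulfur clusters, were all higher in both lines, by 0.56 to 1.15 on the log2 scale in the D1 line (median 0.82) and 0.54 to 1.02 in the D2 line (median 0.79). This grouping by role was made after the values were seen. Ndufv1, the flavin-binding subunit, stood at 219 ± 13.8 CPM in D1-IPs, 202 ± 18.9 in D2-IPs, 98.98 ± 4.65 in D1-inputs and 99.97 ± 5.96 in D2-inputs, a log2 fold change of 1.15 ± 0.045 (SE; adjusted p = 1.5e-25) in the D1 line and 1.02 ± 0.044 in the D2 line. For Ndufs1, the largest iron-sulfur subunit, the levels were 264 ± 16.2 and 266 ± 12.8 CPM in IPs against 130.5 ± 5.01 and 132 ± 6.62 in inputs. The other complex I members had medians of 0.34 and 0.26, and among them Ndufs4, an accessory subunit known from Leigh syndrome, reached 0.88 and 0.92. Ndufa4, named for complex I but since assigned to complex IV, was higher by 0.52 ± 0.054 and 0.46 ± 0.052. Ndufa3, a small membrane subunit, was lower by -0.47 ± 0.092 and -0.38 ± 0.089 on the log2 scale. Ndufa4l2, a relative of Ndufa4 that marks pericytes and hypoxic cells, had 0 to 7 counts in D1-IPs, 0 to 10 in D2-IPs and 17 to 49 in inputs, a fitted log2 fold change of -3.65 ± 0.34 and -3.12 ± 0.29.

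The 4 complex II genes were all higher in IPs of both lines. Sdha, the flavoprotein that oxidises succinate, differed most, with 557 ± 19.7 and 533 ± 29.1 CPM in IPs and 312 ± 8.42 and 318 ± 13.8 in inputs (log2 fold change 0.84 ± 0.033 and 0.75 ± 0.032). Sdhb, the iron-sulfur subunit, was higher by 0.60 and 0.59. The membrane anchors Sdhc and Sdhd were higher by 0.36 and 0.53 in the D1 line and by 0.32 and 0.48 in the D2 line.

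Complex III divided by the size of its subunits, a grouping that was also made after the values were seen. The 2 core proteins Uqcrc1 and Uqcrc2 and the Rieske iron-sulfur protein Uqcrfs1 were higher by 0.88 to 0.93 in the D1 line and by 0.71 to 0.77 in the D2 line. The 5 small subunits had medians of 0.08 and 0.04, and 2 of them, Uqcr11 and Uqcrq, passed the test in each line, by 0.22 and 0.20 in the D1 line and 0.20 and 0.15 in the D2 line. Uqcrc1 (chr9:108936633-108949623, plus strand) ranged from 253 to 280.3 CPM in D1-IPs, around a median of 272 (mean 269 ± 9.60). It ranged from 223 to 285 in D2-IPs (mean 243 ± 16.5) and from 132 to 157 in the inputs of both lines. All IPs were thus above all inputs, and D1- and D2-IPs overlapped. These values of Uqcrc1 gave log2 fold changes of 0.93 ± 0.032 and 0.72 ± 0.031 over inputs.

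In the ATP synthase, 13 of 16 members were higher in D1-IPs and 11 in D2-IPs. Atp5a1 had the largest fold among the members that were higher in IPs, with 1369 ± 64.9 and 1302 ± 84.1 CPM in IPs and 611 ± 22.4 and 618 ± 12.2 in inputs (log2 fold change 1.17 ± 0.034, adjusted p = 7.0e-30, and 1.07 ± 0.033, adjusted p = 3.4e-29). Its exons overlap Haus1 on the other strand. Atp5b (chr10:128083273-128090391, plus strand) ranged from 1417 to 1619 CPM in D1-IPs, from 1261 to 1601 in D2-IPs and from 727 to 828 in the inputs, so that IPs and inputs did not overlap. It was higher by 0.99 ± 0.032 and 0.86 ± 0.031. The gamma and delta subunits of the F1 head, Atp5c1 and Atp5d, were higher by 0.68 and 0.72 in the D1 line and 0.60 and 0.59 in the D2 line, and the epsilon subunit Atp5e had 0.15 ± 0.12 and 0.06 ± 0.12, which did not pass the test. Atp5g1, Atp5g2 and Atp5g3 encode the same mature c subunit of the rotor with different import sequences, and all 3 were higher. Atp5g1 differed by 0.76 and 0.58, Atp5g3 by 0.87 and 0.72 and Atp5g2 by 0.13 and 0.26. With the pool of mice as a block, Atp5g2 in the D1 line had an adjusted p of 0.097, against 0.019 without it. Atp5s, a coupling factor relative that is not a subunit of the enzyme, was lower by -0.31 ± 0.062 and -0.46 ± 0.060 on the log2 scale.

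In complex IV the members went both ways: 4 of 15 were higher and 6 lower in D1-IPs, and 4 were higher and 8 lower in D2-IPs. Cox5a, a nuclear-encoded matrix-side subunit, was higher by 0.87 ± 0.055 and 0.69 ± 0.053, Cox4i1 by 0.35 ± 0.044 and 0.20 ± 0.043, Cox5b by 0.30 and 0.27, and Cox6c by 0.27 and 0.21. Cox8a, with 126.5 ± 8.72 and 124 ± 13.5 CPM in IPs against 160 ± 12.6 and 162 ± 14.7 in inputs, was lower by -0.33 ± 0.052 and -0.39 ± 0.050 on the log2 scale. Cox7c, another small membrane subunit, was lower by -0.29 and -0.36, and Cox7a2l, a factor that links complexes III and IV, by -0.27 and -0.34. Cox6b1, Cox7a2 and Cox7b did not pass the test in either line, with log2 fold changes from -0.11 to 0.15. Cox4i2, the lung and hypoxia isoform of Cox4i1, had at most 2 counts in any D1-IP and 4 in any D2-IP against 7 to 27 in the inputs; set against 3 counts per library, D1-IPs were at least 7.20-fold lower than D1-inputs. Cox6b2, the testis isoform of Cox6b1, had 0 to 10 counts in IPs and 7 to 30 in inputs (fitted log2 fold change -2.91 ± 0.40 and -1.87 ± 0.37). Cox7a1, a heart and muscle isoform, had 1 to 15 counts in IPs and 2 to 19 in inputs and passed the test in the D2 line (-0.999 ± 0.31, adjusted p = 0.0033) but not in the D1 line (-0.62 ± 0.30, adjusted p = 0.058).

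The enrichment of members went with the length of their transcripts. Across the 79 genes, Spearman's rho between annotated transcript length and the log2 fold change over inputs was 0.57 in the D1 line and 0.55 in the D2 line, and Pearson's r with log10 length was 0.31 and 0.32. The points are genes measured in the same libraries, not replicates. Over 14348 protein-coding genes rho was -0.04 and -0.02. The 19 members under 600 bases had a median log2 fold change of 0.03 in the D1 line, the 28 members of 600 to under 1000 bases 0.30 and the 32 members of 1000 bases or more 0.68. In the D2 line these medians were 0.04, 0.23 and 0.59. The corresponding medians over all protein-coding genes of these lengths were -0.33, -0.03 and 0.00 in the D1 line and -0.32, -0.09 and -0.04 in the D2 line, so members lay above other genes in each class. What this relation with length rests on was not tested.

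**Figure D3:**
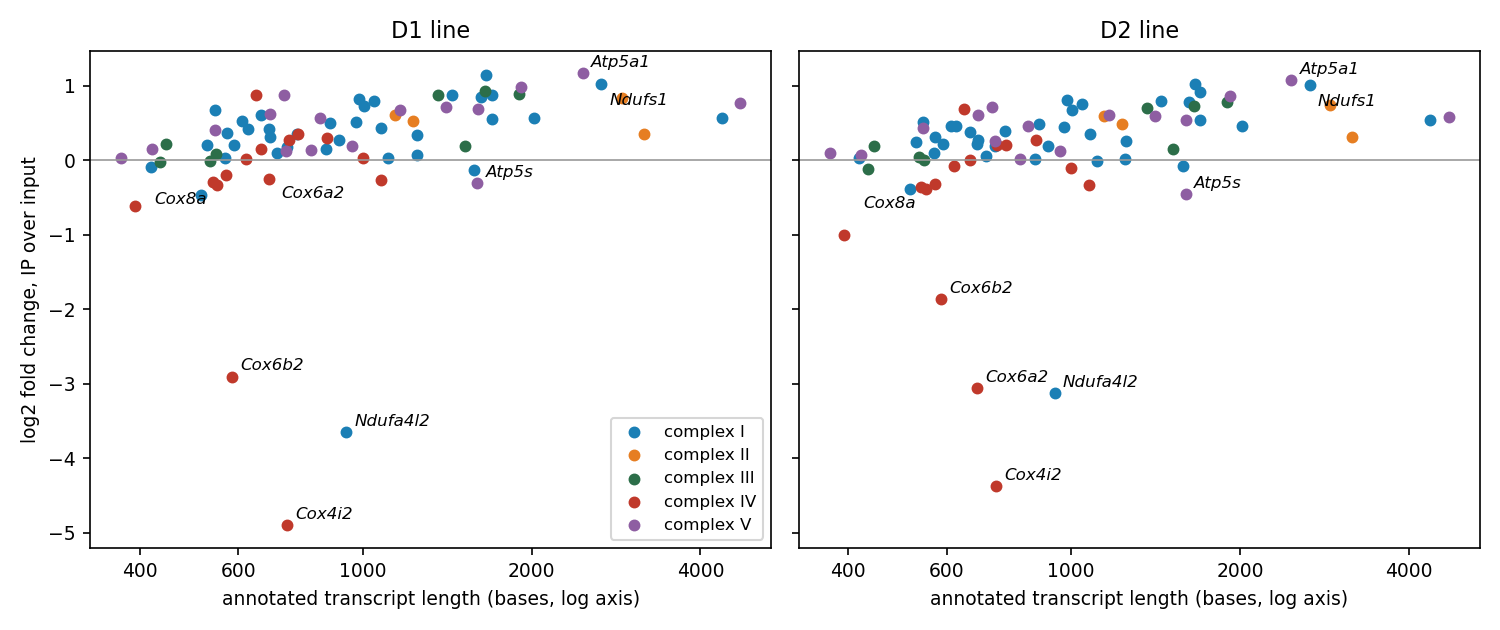
Log2 fold change of IPs over inputs (vertical axis) against annotated transcript length in bases (horizontal axis, log scale) for 79 genes in the D1 line (left) and D2 line (right), colored by complex. Members of 1000 bases or more have medians of 0.68 and 0.59 and those under 600 bases 0.03 and 0.04; the labelled points below -1.5 are Cox4i2, Ndufa4l2, Cox6b2 and, in the D2 line, Cox6a2.

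D1- and D2-IPs were compared next, over all stress groups, to ask whether the 2 MSN subtypes differ in these genes. Of 75 tested members, 10 were higher and 1 lower in D1-IPs (14.7% called, where 40.6% of all genes were called, 19.5% higher and 21.2% lower). The median log2 fold change was 0.03, and leaving Cox6a2 aside the members that passed the test differed by 0.07 to 0.14 or, for Atp5g2, by -0.16. Uqcrc1 was higher by 0.14 ± 0.030 (adjusted p = 0.00032), Uqcrfs1 by 0.14 ± 0.045, Ndufb8, an accessory subunit of complex I, by 0.13 ± 0.039 and Atp5g1 by 0.12 ± 0.039. Their levels overlapped between the lines: Uqcrc1 had medians of 272 CPM in D1-IPs and 237 in D2-IPs, with the ranges given above. Without the 5 D2-IPs over 15% outside genes, 3 members were called, namely Cox6a2, Uqcrc1 (0.11) and Atp5g2 (-0.14). Without D2 Con 1 the count was 17 and without D2 Con 5 it was 7. In controls alone, 1 member was called, Cox6a2 (background 13.7%, 7.59% higher and 6.14% lower), or 2 without D2 Con 1.

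Cox6a2 (chr7:128205435-128206387, minus strand), the heart and muscle isoform of complex IV subunit 6a, which has also been described in parvalbumin interneurons, stood apart from the other members. D1-IPs had 1.33 to 2.68 CPM (median 1.58, mean 1.73 ± 0.39), from 32 to 75 counts per library. Levels in D2-IPs were 0.0827 to 0.858 CPM (median 0.233, mean 0.296 ± 0.21), from 2 to 20 counts. D1- and D2-inputs had 2.07 ± 0.52 and 2.35 ± 0.49 CPM. Every D1-IP was above every D2-IP, which held for no other member and for 2.02% of all genes tested. The log2 fold change between D1- and D2-IPs was 2.61 ± 0.22 (adjusted p = 6.2e-11), rank 27 of 14224 genes by size, and 3.37 ± 0.41 in controls alone (adjusted p = 9.0e-07). It was 2.96 without the 5 D2-IPs and 2.52 to 2.77 on leaving out single libraries. In D2 Con IPs Cox6a2 had 2 to 6 counts, under the count minimum of 10 of the filter, so it entered these tests through D1-IPs. A higher value in D1-IPs was thus favoured in advance, and these folds and p are not read as support. Against inputs, Cox6a2 was lower by -3.07 ± 0.21 on the log2 scale in the D2 line (adjusted p = 1.8e-17), a call favoured in the same way through the inputs. In the D1 line Cox6a2 differed by -0.25 ± 0.18, which did not pass the test (adjusted p = 0.20). Its exons overlap Itgad on the other strand, which had at most 6 counts in any library. The common isoform Cox6a1 (chr5:115345642-115348981, minus strand) had 111 ± 7.90 CPM in D1-IPs, 104 ± 12.0 in D2-IPs, 127 ± 8.58 in D1-inputs and 130 ± 10.3 in D2-inputs; it was lower in IPs by -0.19 and -0.32 on the log2 scale and between D1- and D2-IPs its difference of 0.09 ± 0.049 did not pass the test (adjusted p = 0.17).

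**Figure D4:**
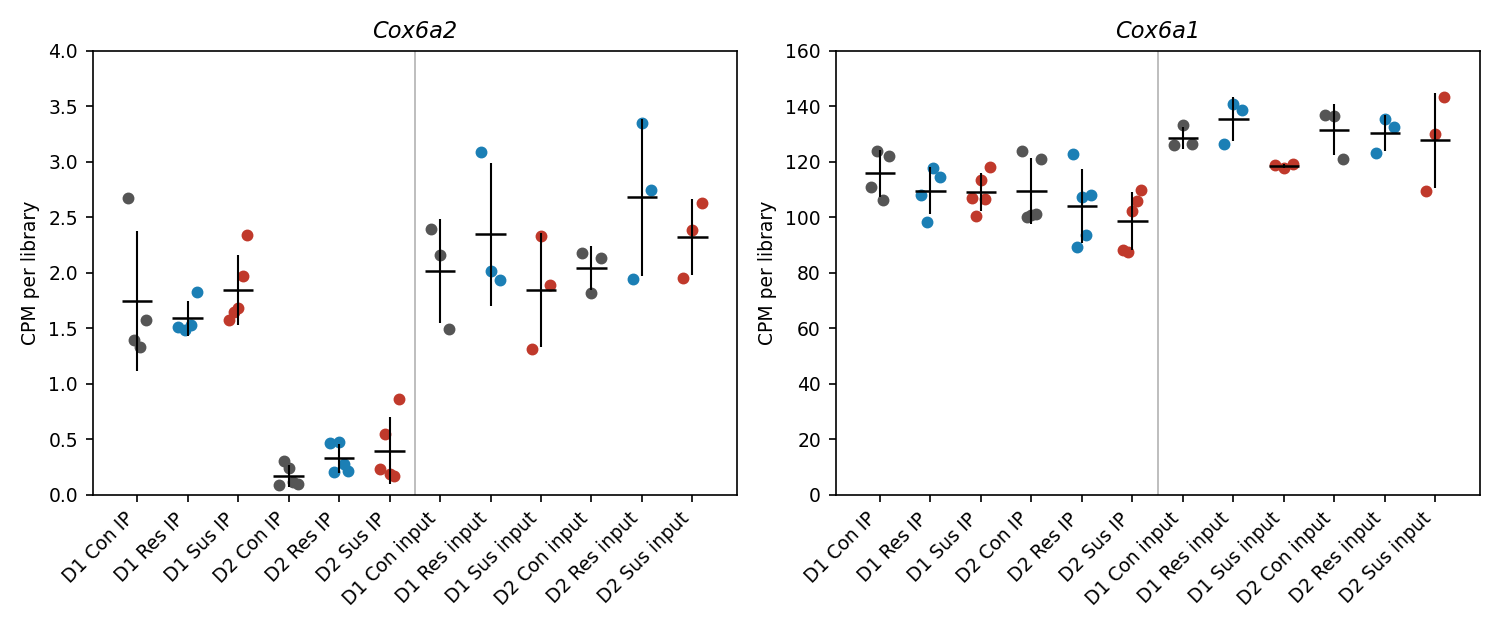
CPM per library (vertical axes, from 0) of Cox6a2 (left) and Cox6a1 (right) in the 12 groups; points are libraries, and bars show the mean and SD. Cox6a2 lies between 0.0827 and 0.858 CPM in all D2-IPs and between 1.33 and 2.68 CPM in all D1-IPs, while Cox6a1 has means of 104 to 130 CPM in the 4 sets.

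Markers of other cells moved along with this comparison. The 3 parvalbumin interneuron markers were higher in D1-IPs (Pvalb by 0.62, Kcnc2 by 0.62 and Kcnc1 by 0.23 on the log2 scale). They summed to 228 to 274 CPM in D1-IPs, 184 to 232 in D2-IPs and 224 to 298 in inputs. Most of this sum was Kcnc1, with a mean of 195 CPM in D1 Sus IPs, where Pvalb had 5.21. Against D1-inputs, Pvalb (-0.44) and Kcnc2 (-0.42) were lower in D1-IPs and Kcnc1 was higher (0.13). All 4 cortical excitatory markers were higher in D1-IPs, with a median of 1.89 and sums of 381 to 1348 CPM against 21.2 to 292. Astrocyte markers were higher for 7 of 7 and oligodendrocyte markers for 5 of 6. Other lists were lower in D1-IPs: general MSN markers for 5 of 5 (median -0.38), microglia markers for 4 of 6 (-0.40), cholinergic markers for 3 of 3 (-3.35), and endothelial and somatostatin and NPY interneuron markers for 1 each. No marker of the parvalbumin or cortical lists was at 0 in any library. Their part in the difference of Cox6a2 was not tested.

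The enrichment over input itself differed between lines for 8 of 79 members, all with larger values in the D1 line (background 25.4%, 13.6% higher and 11.8% lower). Cox6a2 differed by 2.81 ± 0.28, Ndufb8 by 0.21 ± 0.060, Uqcrc1 by 0.20 ± 0.043, Atp5g1 by 0.18 ± 0.062, Atp5f1, the b subunit of the ATP synthase stalk, by 0.16 ± 0.057, Atp5b by 0.13 ± 0.044, Uqcrc2 by 0.12 ± 0.043 and Ndufa10 by 0.11 ± 0.037. With the pool as a block, 2 members were called, and without the 5 D2-IPs also 2, Cox6a2 (3.15) and Uqcrc1 (0.17). Of 46 refits that each left out 1 library, 36 moved the count by over 1.5 times, to as few as 2 (without D2 Sus input 1) and as many as 14 (without D2 Con 1). Inputs of the D1 and D2 lines differed in none of 79 members by edgeR or DESeq2 at an adjusted or unadjusted p of 0.05, where the background was 0.0133% and 4.71%.

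Other genes of energy metabolism were counted from lists fixed by pathway. Among all genes tested, 39.2% were higher and 42.6% lower in D1-IPs than in inputs, and 37.8% and 44.8% in the D2 line. In the D1 line, IPs were higher than inputs for 15 of 17 tricarboxylic acid cycle genes (median log2 fold change 0.60), 14 of 16 glycolysis genes (1.00), 67 of 78 mitochondrial ribosomal protein genes (0.38), 8 of 11 genes of coenzyme Q synthesis (0.41) and 27 of 44 assembly factors of the complexes (0.20). Lower were 2, 2, 4, 2 and 6 genes of these lists. The 10 tested subunits outside the symbol rule, such as Cyc1 and Ndufab1, had 5 higher and 3 lower (median 0.13), and the 14 transcriptional regulators of mitochondrial genes 5 higher and 3 lower (0.05). Of 80 cytosolic ribosomal protein genes, 58 were lower and 14 higher (-0.43). The D2 line gave 15, 14, 65, 8 and 25 higher in the first 5 lists (medians 0.40, 0.84, 0.36, 0.30 and 0.18) and 2, 2, 4, 2 and 6 lower, 4 higher and 4 lower for the other subunits, 4 and 3 for the regulators, and 58 lower and 13 higher for cytosolic ribosomal proteins. Between D1- and D2-IPs, where 19.5% of all genes were higher in D1-IPs and 21.2% lower, 13 of 16 glycolysis genes were higher and 0 lower (median 0.15), and 8 of 17 tricarboxylic acid cycle genes were higher and 1 lower (0.08). The other lists had 3 higher and 0 lower of 10 subunits outside the rule, 5 and 4 of 44 assembly factors, 1 and 1 of 11 coenzyme Q genes, 3 and 5 of 14 regulators, 5 and 4 of 78 mitochondrial and 3 and 1 of 78 cytosolic ribosomal protein genes.

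The stress groups were compared within each line at an unadjusted p of 0.05, to ask whether susceptibility or resilience goes with these genes. By edgeR, and by DESeq2, no member passed at an adjusted p of 0.05 in any of the stress comparisons of IPs or inputs, where the share of all genes passing by edgeR was 0.00703% for D1 Res against Con and 0% in the others. In D1-IPs, Sus against Con gave 3 of 75 members at an unadjusted p of 0.05, all lower and all of complex I (background 5.24%, 2.42% higher and 2.82% lower). Complex I held 35 of the 75 tested members, and 71 of the 75 had a log2 fold change below 0. Ndufs4 (chr13:114287795-114388258, minus strand) had 77.8, 74.2, 71.9 and 77.3 CPM in Con and 63.5, 64.3, 67.4, 71.0 and 68.2 in Sus, so that all 5 Sus libraries were below all 4 Con libraries. Its log2 fold change was -0.17 ± 0.074 (adjusted p = 0.86). Ndufs7, a core iron-sulfur subunit (chr10:80249121-80256794, plus strand), had 67.0, 64.9, 62.9 and 62.8 CPM in Con and 60.0, 52.9, 57.4, 61.6 and 53.3 in Sus, again with no overlap (-0.18 ± 0.076, adjusted p = 0.86). Ndufb11, an accessory membrane subunit encoded on the X chromosome, had 51.0, 48.6, 45.9 and 51.8 CPM in Con and 38.2, 38.8, 50.02, 46.9 and 34.9 in Sus, with overlap (-0.24 ± 0.10, adjusted p = 0.86). These genes were named for their low p, so a lack of overlap is not further support. The share of all genes without overlap in this comparison is not given. The Res libraries had 65.5, 64.4, 80.3 and 66.7 CPM for Ndufs4, with 3 of 4 below every Con library and within the range of Sus, and 40.1, 39.2, 50.8 and 43.98 CPM for Ndufb11, within the range of Sus except for the highest. For Ndufs7 they had 61.9, 62.9, 67.8 and 62.3 CPM, all above every Sus library and overlapping Con. Sus against Res gave Ndufs7 alone (-0.16 ± 0.076, adjusted p = 1.0, background 4.08%, 1.83% higher and 2.25% lower). Res against Con gave no member (background 2.05%, 0.97% higher and 1.08% lower), and DESeq2 gave none either.

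The count in D1-IPs rested on single libraries. The share of all genes called in these refits is not given, so their counts are not read as results about the members. For Sus against Con it was 0 without Con 1 or without Sus 2, 1 without Con 4, Sus 1 or Sus 5, 6 without Con 3 and 5 without Sus 4. For Res against Con it was 11 without Res 3 and 1 without Con 3 or Res 4. With only the libraries of the 2 groups in the fit it was 10 for Sus and 4 for Res. The 1 gene of Sus against Res was lost without Res 2, Res 3, Res 4, Sus 2 or Sus 5.

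In D2-IPs, Sus against Con gave 1 higher and 2 lower members (background 3.6%, 2.04% higher and 1.56% lower) and Res against Con 1 higher and 3 lower (background 2.94%, 1.53% higher and 1.41% lower), all with adjusted p of 1.0. Cox6a2 was the higher one in both. It had 0.0827, 0.305, 0.236, 0.110 and 0.0966 CPM in Con, 0.463, 0.207, 0.469, 0.274 and 0.212 in Res and 0.233, 0.542, 0.186, 0.164 and 0.858 in Sus. In each stressed group 2 values exceeded all 5 Con values and the others overlapped them. The log2 fold change was 1.23 ± 0.46 for Sus and 0.99 ± 0.47 for Res, both from 2 to 20 counts per library. For Sus it was 0.45 without the 5 D2-IPs over 15% outside genes and 0.76 without Sus 5, and neither passed. For Res it did not pass without Con 1, Con 4, Con 5, Res 1 or Res 3 (0.82 to 0.87). Lower in Sus were Ndufb8 (-0.15 ± 0.065) and Atp5s (-0.20 ± 0.097). Lower in Res were Uqcrc1 (-0.12 ± 0.050), Atp5b (-0.11 ± 0.050) and Sdhb (-0.13 ± 0.063). Uqcrc1 had 285, 236.35, 254, 252.5 and 244 CPM in Con and 232, 223, 235.84, 236.30 and 245 in Res, with 4 of 5 Res values below all Con values. Atp5b had 1601, 1354, 1461, 1462 and 1399.9 CPM in Con and 1348, 1261, 1452, 1349 and 1344 in Res, likewise with 4 of 5 below all Con values. Sus against Res gave no member by either tool (background 1.62%, 0.914% higher and 0.703% lower).

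These counts too moved with single libraries, and the share of all genes called in the refits is again not given. For Sus against Con in D2-IPs the count was 15 without Con 2, 10 without Con 3, 5 without Con 5 and 7 without Sus 3. For Res against Con it was 0 without Con 1, 2 without Con 4, 1 without Res 2, 7 without Con 2, 8 without Con 5 and 21 without Res 1, and 12 without the 5 D2-IPs. Sus against Res had 2 members without Res 2.

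Most members lay slightly below controls in both stress groups of both lines. Of 75 members, 71 had a log2 fold change below 0 for D1 Sus, 71 for D1 Res, 74 for D2 Sus and 74 for D2 Res, with medians of -0.09, -0.09, -0.11 and -0.10, while the medians over all genes were 0.00, 0.00, 0.01 and 0.00. Sus and Res of a line share the same Con libraries, and the members share libraries, so these counts are not independent. Cytosolic ribosomal protein genes had medians of -0.09, -0.06, -0.07 and -0.05 in the same comparisons. On leaving out single libraries the median of members stayed below 0, from -0.11 to -0.06 for D1 Sus, from -0.13 to -0.06 for D1 Res, from -0.15 to -0.05 for D2 Sus (nearest 0 without Con 1) and from -0.15 to -0.03 for D2 Res (nearest 0 without Res 2). The summed level was 11059, 10464, 10379 and 10487 CPM in D1 Con, 9903, 9707, 11006 and 10141 in D1 Res and 10051, 9579.8, 10472, 10382 and 9997 in D1 Sus. In the D2 line it was 11635, 9514, 10091, 10174 and 9917 CPM in Con, 10410.1, 8478, 10170.2, 9522 and 9581 in Res and 9586, 9227, 10315, 10009 and 9329 in Sus. The groups overlapped in both lines, and D2 Con 1 was the highest of all libraries.

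The 2 lines were also set against each other. The difference of the Sus effect between D1 and D2 gave 1 of 75 members, Cox6a2 (-1.16 ± 0.56, adjusted p = 1.0, background 1.74%, 0.654% higher and 1.08% lower), which was lost in 10 of 19 refits without 1 library, and the difference of the Res effect gave none by edgeR (background 2.31%, 1.17% higher and 1.13% lower) and 1 by DESeq2, Cox6a2. In inputs, pooled over lines, Sus against Con gave 3 lower members of 79 (background 3.98%, 2.32% higher and 1.65% lower): Ndufv1 (-0.10 ± 0.040), Ndufb10 (-0.08 ± 0.035) and Ndufs6 (-0.10 ± 0.046), with adjusted p of 0.996. Res against Con gave 1 higher, Atp5e (0.20 ± 0.092, background 2.87%, 1.29% higher and 1.58% lower), and Sus against Res 2 lower, Ndufb2 (-0.14 ± 0.064) and Sdhb (-0.10 ± 0.047; background 4.7%, 2.62% higher and 2.08% lower). Without single input libraries these 3 counts ranged over 0 (without D1 Sus 2) to 6 (without D2 Con 3), 0 to 4 (without D1 Res 2) and 0 to 13 (without D2 Res 3).

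**Figure D5:**
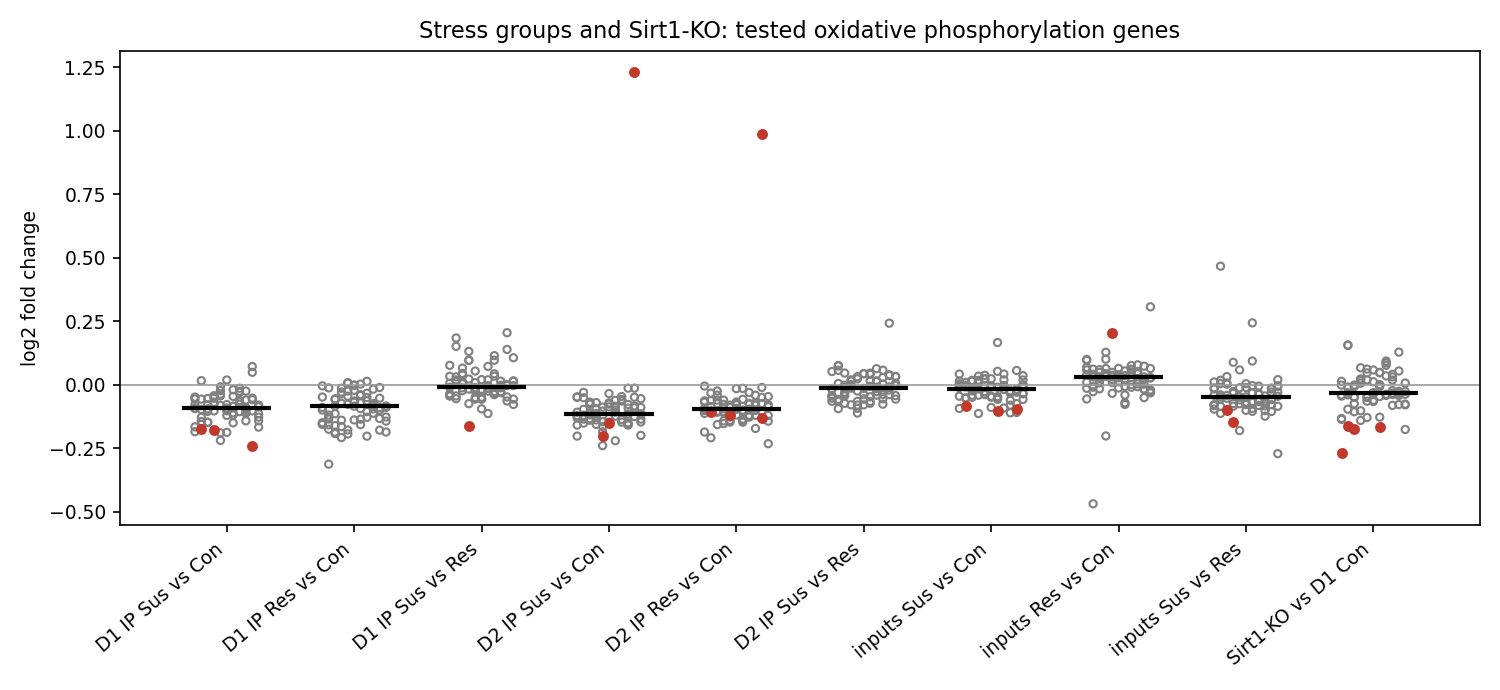
Log2 fold change (vertical axis) of each tested oxidative phosphorylation gene in the stress comparisons of IPs and inputs and for Sirt1-KO against D1 Con. Filled red points have an unadjusted p under 0.05, open points do not, and black bars are medians, which lie between -0.11 and -0.09 in the 4 comparisons of a stressed group of IPs with Con; the 2 points near 1 in the D2 comparisons are Cox6a2.

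Last, D1-IPs labelled Sirt1-KO were compared with D1 Con IPs, which asks what loss of the deacetylase Sirt1, a regulator of mitochondrial biogenesis through PGC-1alpha, does in D1-MSNs. Sirt1 itself had 15.2, 16.2, 13.2 and 10.2 CPM in the Sirt1-KO libraries and 13.1, 16.6, 14.8 and 14.4 in Con (log2 fold change -0.10 ± 0.13, adjusted p = 0.77). CPM here were scaled within the table of these 8 libraries. Counts over the whole gene cannot show whether a floxed exon is lost, so the label was not checked by them. The labels do not say whether Sirt1-KO and Con libraries were prepared together. The Sirt1-KO label and a difference in preparation therefore cannot be told apart. By edgeR no member of 75 passed at an adjusted p of 0.05, where 1.8% of all genes did. At an unadjusted p of 0.05, 4 were lower and none higher (background 16.6%, 8.62% higher and 8.01% lower). Cox6c, a small complex IV subunit (chr15:35925886-35938246, minus strand, with exons overlapping Vps13b on the other strand), had 112, 107, 104 and 84.9 CPM in Sirt1-KO and 122, 119, 118 and 133 in Con, with no overlap. Its log2 fold change was -0.27 ± 0.080 (adjusted p = 0.11), and the adjusted p ranged from 0.043 to 0.26 over the alternatives, passing 0.05 with DESeq2 (0.0496) and with the replicate number as a block. Ndufs4 had 67.3, 61.5, 61.6 and 64.8 CPM against 73.5, 70.3, 68.1 and 73.5, also with no overlap (-0.16 ± 0.057, adjusted p = 0.17). Cox7a2l (-0.17 ± 0.072) and Atp5g1 (-0.17 ± 0.070) overlapped between the groups. Here too the genes were named for their low p, and the share of all genes without overlap is not given. The summed level was 9895 ± 90.4 CPM in Sirt1-KO and 10043 ± 283 in Con (n = 4 each), and the median log2 fold change of members was -0.03, against 0.00 for all genes.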

How the data were processed

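The deposited values were raw counts for each gene symbol. The authors used cutadapt for trimming, STAR for alignment against mm10 and HTSeq for counting. The library kit keeps strand, but the strand setting of counting, tool versions and the annotation are not given in the sources used here. Reads of near-identical copies, of which these genes have many processed ones, may have been lost or split. Groups came from the deposited labels, and 2 columns that match no sample description were not used. The 5 entries that name no gene were left out (18.0% to 28.3% of each IP and 35.9% to 40.0% of each input). Counts were tested with edgeR 4.0.16 (R 4.3.3; TMM, filterByExpr with a count minimum of 10 and a total of 15, robust quasi-likelihood, Benjamini-Hochberg over all genes). The fits held all 46 libraries (IP against input), the 28 IPs, the 18 inputs or the 8 libraries of the Sirt1-KO table, and were tested on simulated data. A member counts as called at an adjusted p of 0.05, and in stress comparisons at an unadjusted p of 0.05. Log2 fold changes are given with SE, and CPM are counts per 1000000 on TMM-scaled library sizes. Replicates are pools of separate mice, and no pair of 76 was a duplicate (chi-square per gene 3.51 to 98.7). An IP and input of the same number come from the same pool of mice, by the extraction protocol; their deviations correlated over 0.1 in 3 of 18 pairs (-0.19 to 0.51). Defeat batches and sequencing sets are not assigned to libraries in the labels, so no within-batch values are given. Gene positions and transcript lengths are from GENCODE for GRCm38 and promoters from RefSeq for GRCm38.p6.

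Named genes were 13 fixed subunits, families with tissue isoforms, up to 5 members of each direction with the largest change past the threshold, and the 3 lowest p in each stress comparison. The members and all lists were chosen with earlier results of these data known. Alternatives were DESeq2 1.42.0, RLE size factors, no filter on low counts, a replicate block, fewer libraries in the fit, a fold of 1.5, adjusted p under stress and leaving out each library; leaving out 5 D2-IPs was added after the data were seen.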

Additional observations from a re-analysis of the deposited data

Results flagged for a closer look

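In 4 of 67 groups of 4 or 5 libraries, 1 library stood apart by Dixon's ratio of its gap to the group's range, where chance gives about 1 in 20. The summed level of the 83 genes in D1 Con IPs was highest in Con 1 (ratio 0.841). Cox6a2 in D1 Res IPs was highest in Res 4 (0.861). Ndufs4 and Ndufs7 in D1 Res IPs were both highest in Res 3 (0.853 and 0.829).

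The difference between IPs and inputs was larger in the D1 line than in the D2 line, by a test of that difference, for 8 of 79 genes. This was 10.1% of members, against 25.4% of all genes called (13.6% higher and 11.8% lower), and fewer members were called with the pool as a block. The 8 genes were Cox6a2 (2.81 on the log2 scale), Ndufb8 (0.21), Uqcrc1 (0.20), Atp5g1 (0.18), Atp5f1 (0.16), Atp5b (0.13), Uqcrc2 (0.12) and Ndufa10 (0.11).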

How the results depend on the processing

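Of 2996 refits of 113 pairs of a named gene and a comparison, 2694 kept direction and side of the threshold, 241 lost the call, 47 gained it and 14 changed sign; the causes were not tested. Counts of members called in IP against input stayed within 1.5 times of 64 (D1) and 62 (D2) except with a fold of 1.5 (27 and 25), and without single libraries were 63 to 65 and 62 to 64. The count for D1 minus D2 was 3 with RLE size factors, 4 with DESeq2, 2 with the pool as replicate block, 1 in controls alone, 2 without the 5 D2-IPs, 1 with a fold of 1.5 and 2 to 14 without single libraries. For D1- against D2-IPs it was 3 without the 5 D2-IPs, 1 with a fold of 1.5 and 7 to 17 without single libraries, and 1 to 2 in controls. Shares of all genes called are not given for the refits, here, above or below. Cox6a2 kept its call in these 3 comparisons under every alternative run, with the limit given above that it entered them through D1-IPs or inputs.

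Stress counts without single libraries were 0 to 6 (D1 Sus), 0 to 11 (D1 Res), 0 to 1 (D1 Sus against Res), 2 to 15 (D2 Sus), 0 to 21 (D2 Res), 0 to 2 (D2 Sus against Res), 0 to 1 and 0 to 2 (D1 minus D2 for Sus and Res), 0 to 6, 0 to 4 and 0 to 13 (inputs), and 0 to 0 between the input lines and for Sirt1-KO. With adjusted p all were 0. With only the compared libraries they were 10 (D1 Sus), 4 (D1 Res), 6 (D2 Sus), 0 (D2 Res), 0 and 1 (D1 minus D2 for Sus and Res) and 0 (inputs, Sus against Res); this setting was identical to the reported fit for the input lines and for D1- against D2-IPs. With all genes of at least 1 count they were 5 (D2 Sus), 1 (D2 Sus against Res) and 1 (D1 minus D2, Res), with DESeq2 1 (D1 minus D2, Res) and 1 (Sirt1-KO), and without the 5 D2-IPs 12 (D2 Res).

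Deviations of same-numbered samples of different groups correlated over 0.1 in 17 of 66 pairs of IPs, 12 of 45 of inputs and 0 of 3 for Sirt1-KO. An IP and input of the same pool, which are known pairs, did so in 3 of 18. This check therefore cannot show whether same-numbered samples pair. With the replicate number as a block the counts were 2 (D1 Res), 14 (D2 Sus), 11 (D2 Res), 5 (inputs, Sus against Res) and 1 (Sirt1-KO). The pool block changed no other call of a named gene in IP against input than Atp5g2 in the D1 line.

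Sign changes were all near 0: in the D1 line, Cox6b1 was -0.011 (RLE), -0.011 (DESeq2), -0.028 (pool block) and -0.011 to 0.048 without single libraries (lowest without Res IP 3), and Cox7b -0.0029 (pool block) and -0.0019 (without Res IP 3) to 0.061; in the D2 line, Cox6b1 was 0.00052 in controls alone and Cox7a2 -0.030 (without Res IP 1) to 0.086; Cox6a1 was -0.057 to 0.0022 between input lines (highest without D2 Sus input 3) and -0.021 to 0.053 for Sirt1-KO, below 0 without Con 1, Con 3 or Sirt1-KO 5; Cox6a2 was -0.020 for Sirt1-KO with the replicate block. Depth limits Cox6a2, Cox4i2, Cox6b2, Cox7a1 and Ndufa4l2, with under 100 counts in any library.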
